A study of Homo sapiens with 2 samples.

Results

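Germline genes of the piRNA pathway and of meiosis were followed in OVSAHO, an established cell line from a human serous ovarian cancer. The set holds 10 genes chosen by symbol: GTSF1, MAEL, DDX4, PIWIL2, PIWIL4 and TDRKH of the piRNA pathway, and REC8, SYCP2, HORMAD1 and STAG3 of meiosis. All 10 symbols were found among the 26255 listed. The set was proposed with the loss of GTSF1 and REC8 in the perturbed library already known, so their levels are a description and carry no test. RNA-seq was available for 2 libraries, 1 per group. The perturbed culture had SMARCA2 expression raised and SMARCA4 expression lowered, per the series text; its genotype label reads SMARCA2 stable with SMARCA4 knockdown. The control culture is labelled WT and is named OVSAHO-Ctrl-siNC in the series text. Cultures of each group were kept in carboplatin, a platinum drug that crosslinks DNA, at 25 µM for 2 days, so neither group shows untreated cells.

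SMARCA2 and SMARCA4 are the alternative ATPases of the SWI/SNF complex, which moves nucleosomes. SMARCA2 was at 2.60 FPKM (fragments per kilobase of transcript, scaled to the mapped fragments of the library) in the perturbed library and 0.205 in the control, and SMARCA4 at 4.49 and 27.9 FPKM. Each went the way the series text states. Where a pair of FPKM values is given for a gene below, the perturbed library comes first. The depth that the FPKM values imply, estimated from the steps between low values, was about 8850000 fragments in the perturbed library and 9050000 in the control. Of 11 markers of serous ovarian epithelium, 9 were at 1 FPKM or more in a library, with PAX8 at 42.1 and 21.9 FPKM. Of these 9, KRT7 was 4.55-fold lower in the perturbed library (119 and 540 FPKM) and WT1 3.61-fold higher (5.52 and 1.53 FPKM). Both were past the rule of size used below, and the other 7 lay within it. That rule called 15.5% of the 11785 genes at 1 FPKM or more in a library, so calls among 9 genes are too few to read. MUC16 was listed at 0 and 0.0608 FPKM. With no replicates, no value has a between-culture error, and a difference between the libraries cannot be told apart from a difference between 2 cultures or clones.

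The piRNA pathway is the small-RNA system that silences transposons in germ cells. PIWI proteins, the germline branch of the Argonaute family, bind piRNAs and guide the cutting of transposon transcripts or the silencing of their genes. Meiosis uses its own versions of the cohesin ring and its own chromosome axis, on which homologous chromosomes pair and recombine. In somatic cells most of these genes are held silent, often by DNA methylation and Polycomb complexes at their promoters, and some are switched on in cancers.

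The promoters of the members that the results turn on differed in CpG number and in the motifs they held. Promoters were taken from RefSeq (GRCh38.p14) for 7 of the 10 members, and member windows on 1 chromosome were not taken. The 250 bases before the outermost annotated start are printed for the 3 members that were lower in the perturbed library (GTSF1, REC8 and TDRKH) and for SYCP2, the meiosis gene detected below 1 FPKM in each library. Capitals mark any of 4 motifs on either strand: TTCCCGC (E2F), CACGTG (E-box), CCAAT (NF-Y) and CCGGAAG (ETS). The motifs were chosen after the sequences had been seen.

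GTSF1 (chr12:54473603-54473852, minus strand): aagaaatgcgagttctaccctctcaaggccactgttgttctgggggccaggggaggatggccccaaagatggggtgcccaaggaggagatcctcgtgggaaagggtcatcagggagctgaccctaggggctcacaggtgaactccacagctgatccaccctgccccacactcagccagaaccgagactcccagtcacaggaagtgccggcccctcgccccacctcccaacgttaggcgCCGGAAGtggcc
REC8 (chr14:24171830-24172079, plus strand): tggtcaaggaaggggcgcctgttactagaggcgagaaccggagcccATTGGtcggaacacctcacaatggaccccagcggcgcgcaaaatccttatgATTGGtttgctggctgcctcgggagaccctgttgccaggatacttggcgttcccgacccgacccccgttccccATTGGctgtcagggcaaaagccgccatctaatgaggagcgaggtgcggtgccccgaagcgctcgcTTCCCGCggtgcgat
TDRKH (chr1:151790535-151790784, minus strand): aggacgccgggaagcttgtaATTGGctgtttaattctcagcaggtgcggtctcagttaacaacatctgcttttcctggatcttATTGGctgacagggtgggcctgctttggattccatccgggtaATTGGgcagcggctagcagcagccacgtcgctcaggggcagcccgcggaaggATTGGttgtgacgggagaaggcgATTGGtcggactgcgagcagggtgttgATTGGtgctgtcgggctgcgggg
SYCP2 (chr20:59933638-59933887, minus strand): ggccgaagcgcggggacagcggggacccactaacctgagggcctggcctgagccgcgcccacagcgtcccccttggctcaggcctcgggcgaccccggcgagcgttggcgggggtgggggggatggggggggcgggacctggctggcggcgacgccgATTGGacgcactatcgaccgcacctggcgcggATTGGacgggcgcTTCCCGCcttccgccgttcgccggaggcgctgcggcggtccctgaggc

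The GTSF1 window held 8 CpG dinucleotides, fewer than the median of 11 over the 35116 promoter windows of the same length. REC8 held 21, TDRKH 15 and SYCP2 33, against an upper quartile of 23 over all windows. The only marked motif of the GTSF1 window was a single ETS motif that began 12 bases before the start, a motif present in 8.52% of all windows. REC8 had 3 NF-Y motifs and an E2F motif that began 15 bases before the start, and SYCP2 had 2 NF-Y motifs and an E2F motif that began 48 bases before it. The E2F motif was present in 5.52% of windows. TDRKH had 6 NF-Y motifs, where 32.0% of windows had at least 1, and no E2F motif. No E-box lay in any of the 4 windows, and 6.34% of all windows had one. No motif of the 4 was shared by GTSF1, REC8 and TDRKH. A match is a string of letters and no measure of binding, and these coordinates are not those of the hg19 build the submitters used.

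In these cells the 10 genes were either listed at 0, barely detected, or clearly expressed in the control. MAEL, DDX4, PIWIL4, HORMAD1 and STAG3 were listed at 0 in each library, as were 35.9% of all genes in the tables. PIWIL2 and SYCP2 were detected below 1 FPKM in each library. GTSF1, TDRKH and REC8 were at 15.7 FPKM or more in the control and lower in the perturbed library. These 3 alone reached 1 FPKM in at least 1 library, and each was past a rule of size that calls a gene when log2((FPKM + 1) / (FPKM + 1)), perturbed over control, is at least 1 or at most -1. GTSF1 and REC8 entered the count through the control library alone. Over all 11785 genes at 1 FPKM or more in a library, 7.61% were called lower and 7.85% higher. The members were chosen on this same contrast, so nothing is read from 3 of 3. Centred on the median ratio, the split over all genes moved from 925 higher and 897 lower to 1200 higher and 652 lower, and the median log2 ratio moved from -0.06 to 0.05. The 3 members stayed called under that centring.

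**Figure D1:**
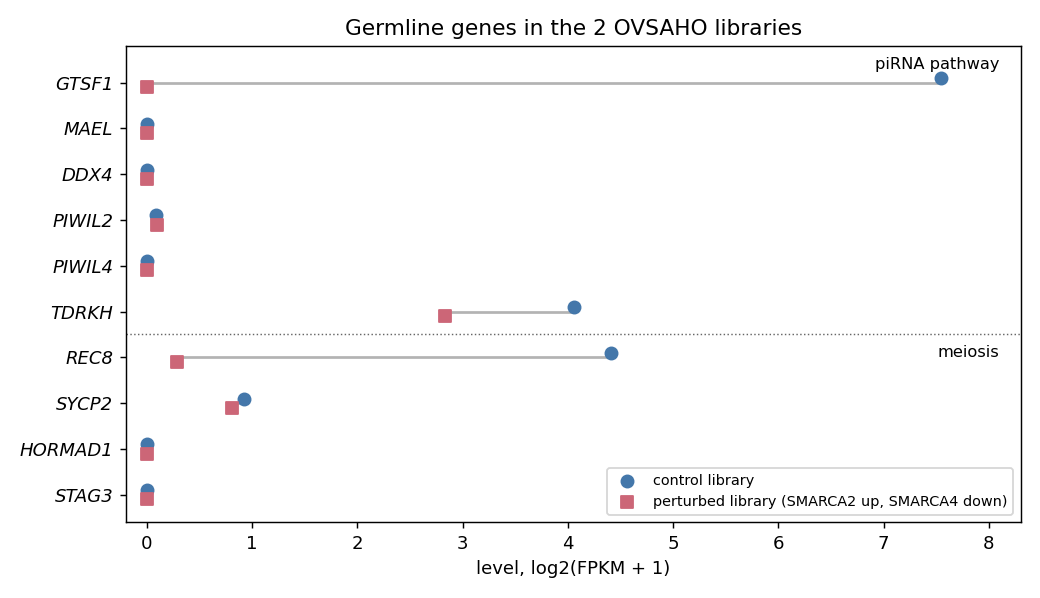
Level of each of the 10 members in the control (circles) and perturbed (squares) library, as log2(FPKM + 1), 1 library per group and no error bars; the dotted line parts piRNA genes from meiosis genes. GTSF1, TDRKH and REC8 lie apart between the libraries, SYCP2 and PIWIL2 nearly coincide, and 5 genes sit at 0 in each.

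GTSF1 encodes a small zinc-finger protein that binds PIWI proteins and stimulates their cutting of target RNA. GTSF1 was at 186 FPKM in the control and listed at 0 in the perturbed library. It was not a weak transcript in the control, where it ranked 892 among all genes by level. About 1018 fragments stood behind the control value. In bulk RNA, fewer cells with the transcript and less of it per cell cannot be told apart. For a transcript of its length, 804 bases, 1 fragment in the perturbed library would have been 0.187 FPKM, and a true count of 0 allows up to 0.561 FPKM (3 fragments, counting error only). No fold is given against a value of 0, since a deposited 0 can also be a failed estimate. Of 10730 genes at 1 FPKM or more in the control, 61 (0.568%) were listed at 0 in the perturbed library.

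The genes with the pattern most like GTSF1, by rule, were the most abundant in the control among those listed at 0 in the perturbed library with a transcript of at least 300 bases. Of 35 such genes at 1 FPKM or more in the control, GTSF1 had the highest level. CGA, which encodes the shared subunit of glycoprotein hormones, came next at 26.3 FPKM, followed by SEMA3B-AS1, an antisense transcript, at 11.3 FPKM. PAGE5, a cancer-testis gene, was at 3.47 FPKM, LINC01054 at 2.84 FPKM, and SAA2, a serum amyloid gene, at 2.82 FPKM. LINC01054 and SAA2 rested on about 8.08 and 9.25 fragments in the control, so a 0 for them says less than a 0 for GTSF1.

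TDRKH encodes a Tudor-domain protein of the mitochondrial surface that recruits PIWI proteins for the trimming of piRNA ends. TDRKH was at 6.14 FPKM in perturbed and 15.7 in control cells, 2.56-fold lower, with a 95% counting interval of 2.09 to 3.14 (Clopper-Pearson, from about 133 and 348 fragments). The interval covers counting error only and does not speak for other cultures. Its log2 ratio was -1.23, near the edge of the rule, and -0.89 with 5 FPKM added in place of 1, which ends the call. OAZ3 overlaps TDRKH in the annotation and was at 10.2 and 16.8 FPKM; reads of overlapping genes cannot be told apart without strand.

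Transcripts of the PIWI genes in the set were at the edge of detection or listed at 0. PIWIL2, which loads piRNAs early in the pathway, was at 0.0657 and 0.0643 FPKM in the perturbed and control libraries. Their ratio of 1.02 equals the ratio of the value of 1 fragment in the 2 libraries, so the same number of fragments lay behind each, about 1.89 with the shorter transcript and 2.87 with the longer. PIWIL4, the PIWI protein that acts in the nucleus, was listed at 0 in each, where a true count of 0 allows up to 0.113 FPKM in the perturbed library. DDX4, the germ-cell helicase also called VASA, and MAEL, a factor of transposon silencing, were listed at 0, with limits of 0.151 and 0.208 FPKM. In the control, where GTSF1 was at 186 FPKM, PIWIL2 was thus at 0.0643 FPKM and PIWIL4 was listed at 0, with a limit of 0.111 FPKM.

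REC8 encodes the meiotic kleisin, the subunit that closes the cohesin ring in germ cells, where RAD21 does so in dividing somatic cells. REC8 was at 0.223 FPKM in perturbed and 20.3 in control cells, 91.0-fold lower with a counting interval of 36.0 to 322. About 4.20 fragments stood behind the perturbed value and 391 behind the control, so the size of the fold is known only loosely. IPO4 overlaps REC8 in the annotation and was at 33.5 and 41.1 FPKM, and reads of overlapping genes cannot be told apart without strand. Among 5946 genes above 0 in each library and at 10 FPKM or more in one, REC8 had the lowest ratio of FPKM without a pseudocount. With 1 FPKM added its log2 ratio was -4.12, and ST6GAL1 (-4.66), MAL (-4.41), UCA1 (-4.31) and TMEM189-UBE2V1 (-4.29) lay below it. The counting interval of REC8 also holds the folds of PPP1R14A, ST6GAL1 and MAL. The nearest to it in ratio without a pseudocount were PPP1R14A, an inhibitor of myosin phosphatase (68.5-fold lower), the sialyltransferase gene ST6GAL1 (47.7-fold), the membrane proteolipid gene MAL (44.2-fold), TMEM189-UBE2V1 (32.2-fold) and the long non-coding RNA UCA1 (30.8-fold). In the perturbed library PPP1R14A rested on about 0.759 fragments, and TMEM189-UBE2V1 is a read-through locus that shares exons with its parent genes.

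Of the other meiosis members, SYCP2 alone was above 0 in the control and could show a loss. SYCP2, a protein of the chromosome axis in the synaptonemal complex, was at 0.748 FPKM in perturbed and 0.899 in control cells. About 35.6 and 43.7 fragments stood behind these values. The counting interval of its ratio, perturbed over control, ran from 0.519 to 1.33 and held 1. HORMAD1, an axis protein that promotes recombination, was listed at 0 in each library, with a limit of 0.227 FPKM in the perturbed one. STAG3, the meiotic STAG subunit of cohesin, was also listed at 0, with a limit of 0.0847 FPKM. The 6 listed loci derived from STAG3 copies were at 2.18 to 21.9 FPKM in the perturbed library and 1.57 to 17.8 FPKM in the control. How reads shared between STAG3 and these copies were assigned is not given in the sources used here, so the 0 of STAG3 is uncertain.

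**Figure D2:**
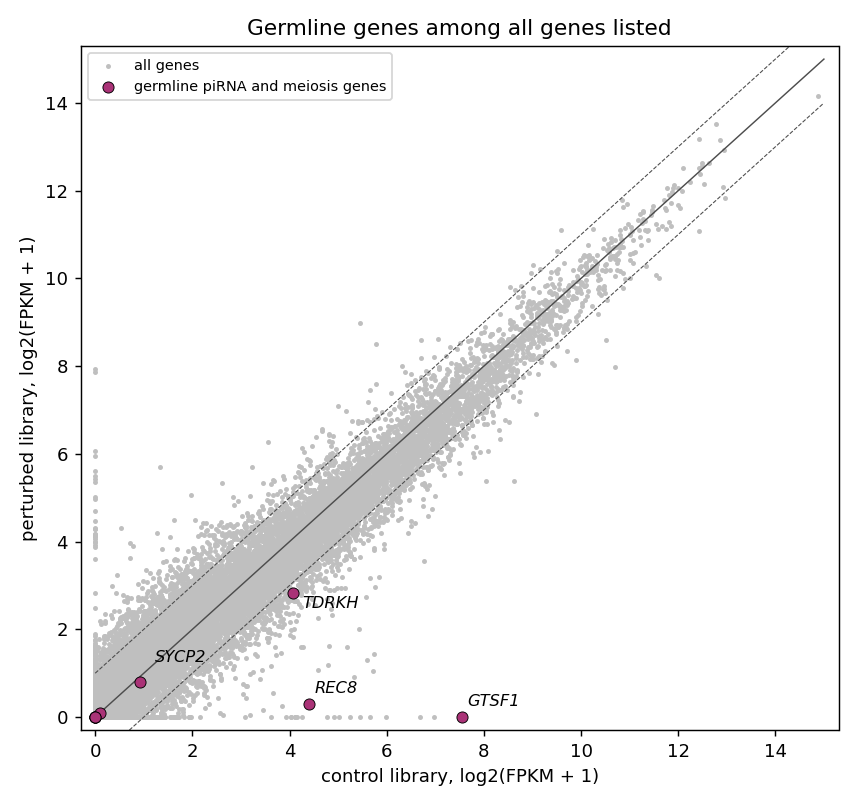
Each point is a gene, with its level in the control on the x axis and in the perturbed library on the y axis, as log2(FPKM + 1); the solid line marks equal levels and the dashed lines the rule of size. GTSF1 and REC8 lie at the bottom edge, TDRKH just outside the lower dashed line, and SYCP2 near the line of equal levels.

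The rest of the piRNA pathway was mostly below 1 FPKM in each library. Of 25 other genes of piRNA making and silencing, 5 were at 1 FPKM or more in a library, beside 11785 of 26255 over all genes. Of the 5, 1 was called lower and none higher. Another 10 were listed at 0 in each library, as were 35.9% of all genes. With 7.61% of all genes called lower, 1 of 5 is too small a count to read. The 5 had a median log2 ratio of -0.33, beside -0.06 over all genes at that level. The lower gene was PLD6, the mitochondrial nuclease that cuts piRNA precursors at the surface where TDRKH sits. PLD6 was at 4.37 FPKM in perturbed and 12.9 in control cells, 2.95-fold lower (2.32 to 3.78), a call that ended with 5 FPKM added in place of 1. PLD6 and TDRKH have transcripts of 2 to 3 kb, a class in which 9.63% of genes were called lower. The most abundant was HENMT1, which methylates piRNA ends, at 103 and 165 FPKM, within the rule. TDRD7, a Tudor-domain protein also made outside the germline, was at 4.01 and 4.19 FPKM. MYBL1, the transcription factor that drives piRNA genes in the testis, was at 1.97 FPKM in perturbed and 0.781 in control cells, within the rule. PIWIL1, below the filter, had 0.304 FPKM in perturbed cells, on about 9.96 fragments. In the control PIWIL1 was listed at 0, where a true count of 0 allows up to 0.0897 FPKM. PIWIL3 was listed at 0 in each.

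Some meiosis genes outside the set were expressed, where 11785 of all 26255 genes were at 1 FPKM or more in a library. Of 42 genes listed, 41 were found in the tables and 14 were at 1 FPKM or more in a library; 2 were called higher, 1 lower, and 11 lay within the rule. Over all genes at that level 15.5% were called in either direction, so 3 of 14 is near the background. Their median log2 ratio was 0.35. DMC1, the recombinase that pairs homologous DNA in meiosis, was at 1.87 FPKM in perturbed and 0.117 in control cells, 15.9-fold higher (4.05 to 137), on about 31.1 and 2 fragments. MSH5, part of a complex that stabilises crossover intermediates, was at 2.92 and 0.813 FPKM, 3.59-fold higher (2.11 to 6.39). The neighbouring read-through locus MSH5-SAPCD1, at 0.324 and 0 FPKM, shares its exons. SYCE3, of the central element of the synaptonemal complex, was at 0.470 and 2.30 FPKM and called lower, but it rested on about 1.03 and 5.16 fragments, and the counting interval of its ratio, 0.00477 to 1.76, held 1. These 3 calls ended with 5 FPKM added.

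Several partners of meiotic recombination were expressed and lay within the rule. PSMC3IP and MND1, which form the complex that assists DMC1, were at 49.3 and 63.9, and at 30.5 and 21.3 FPKM in the perturbed and control libraries. TRIP13, the ATPase that removes HORMA-domain proteins from chromosomes, was at 93.4 and 105 FPKM while its meiotic substrate HORMAD1 was listed at 0. MAD2L1, the mitotic HORMA-domain protein, was at 92.1 and 143 FPKM. HSF2BP and C19orf57, which act in a complex with BRCA2, were at 7.98 and 5.40, and at 18.3 and 30.4 FPKM. The recombination factor MEIOB was at 6.73 and 3.86 FPKM. SYCP1 and SYCP3, the main filament and axis proteins of the synaptonemal complex, were at 0 and 0, and at 0.124 and 0.121 FPKM.

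The somatic relatives of the members lay within the rule. None of 10 genes at 1 FPKM or more was called, which is no trait of the list where 15.5% of all genes were. The median log2 ratio was 0.36, beside -0.06 over all genes at that level. Without the pseudocount, AGO2 was 2.41-fold higher (1.52 to 3.90) and STAG1 2.11-fold higher (1.64 to 2.74). RAD21, the somatic counterpart of REC8, was at 27.9 FPKM in perturbed and 29.6 in control cells. STAG1 and STAG2, the somatic counterparts of STAG3, were at 3.66 and 1.73, and at 5.13 and 3.63 FPKM, and SMC1A and SMC3, the arms of the ring, at 12.7 and 7.13, and at 33.3 and 24.6 FPKM. STAG1 and SMC1A have transcripts of 6000 bases or more, a class with a median log2 ratio of 0.44 in which 16.5% were called higher. In the control, REC8 was at 20.3 FPKM, a level per length, beside 29.6 FPKM for RAD21. SMC1B, the meiotic form of SMC1A, was at 0.295 and 0.663 FPKM. Among Argonautes, AGO2, the small-RNA-guided nuclease of somatic cells, was at 2.50 and 1.04 FPKM. DDX3X, a somatic relative of DDX4, was at 28.4 and 24.0 FPKM.

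Genes known to hold germline genes silent were all expressed. Of 21 genes of Polycomb complex PRC1.6, histone H3 lysine 9 methylation and DNA methylation, 1 was called higher and none lower, beside 7.85% and 7.61% over all genes, with a median log2 ratio of -0.25. The higher gene was DNMT3A, a de novo DNA methyltransferase, at 3.55 FPKM in the perturbed library and 0.425 in the control, 8.35-fold higher (4.68 to 16.2), a call that ended with 5 FPKM added. Its relative DNMT3B was at 3.64 and 1.57 FPKM and the maintenance enzyme DNMT1 at 68.9 and 37.7 FPKM, within the rule. UHRF1, which brings DNMT1 to replicated DNA, was at 11.4 and 21.0 FPKM. E2F6 and PCGF6, the DNA-binding and defining subunits of PRC1.6, were at 10.4 and 12.5, and at 8.84 and 11.2 FPKM, and MGA, its scaffold, at 1.59 and 0.606 FPKM. The MGA transcript is also in the class of 6000 bases or more, where 16.5% of genes were called higher. SETDB1, which methylates H3 lysine 9, was at 6.88 and 10.1 FPKM. Methylation and binding at the promoters were not measured, and the part of these genes in the loss of GTSF1 and REC8 was not tested.

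**Figure D3:**
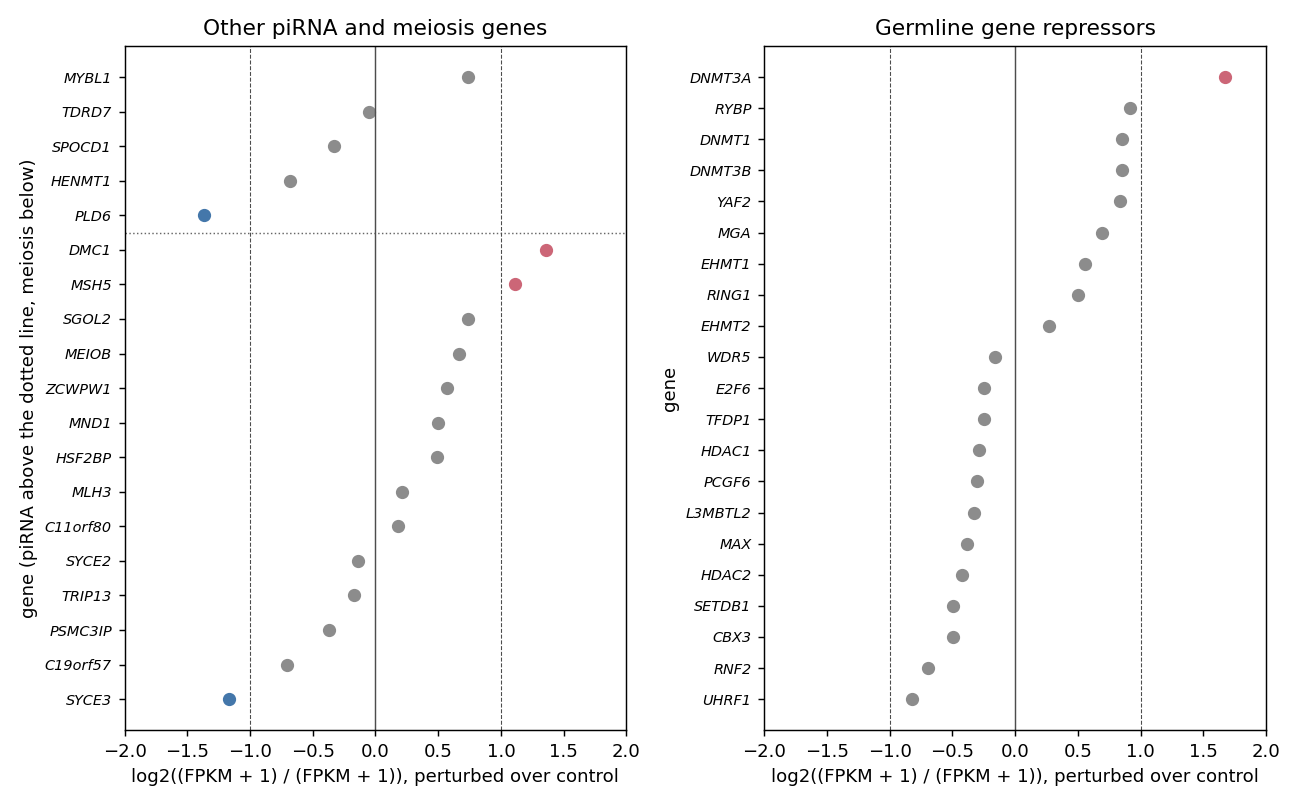
Log2((FPKM + 1) / (FPKM + 1)), perturbed over control, for each gene at 1 FPKM or more in a library, by list; dashed lines mark the rule of size, red points genes called higher and blue points genes called lower. PLD6 and SYCE3 lie below the rule, DMC1, MSH5 and DNMT3A above it, and the other genes between.

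The genes beside GTSF1 that were expressed lay within the rule. The 5 genes on each side that the tables list were taken in RefSeq order. Of these 10, 4 were at 1 FPKM or more and none was called, a count too small to set against the 7.61% of all genes called lower. The other 6, below 1 FPKM in each library, could show no loss. ITGA5, the integrin subunit gene next to GTSF1 on one side, was at 4.07 FPKM in perturbed and 5.32 in control cells. NCKAP1L, next to it on the other side, was listed at 0 in each. COPZ1, a coatomer subunit gene, was at 102 and 78.5 FPKM, ZNF385A at 2.995 and 2.21 FPKM, and PPP1R1A at 1.04 and 0.135 FPKM. Without the pseudocount PPP1R1A was 7.66-fold higher (1.78 to 69.6), on about 14.9 and 1.99 fragments.

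Beside REC8, 1 neighbour was lower as well. Of the 10 genes, 8 were at 1 FPKM or more, 1 was called lower and none higher, near the 7.61% called lower over all genes. The lower one was IRF9, the adjacent gene, which encodes the DNA-binding subunit of an interferon-responsive complex: 6.65 FPKM in the perturbed library and 34.6 in the control, 5.20-fold lower (4.17 to 6.53). RNF31, beyond IRF9, was at 9.38 and 7.90 FPKM, PSME2, a proteasome activator subunit, at 1185 and 1233 FPKM, and EMC9 at 64.1 and 42.4 FPKM. On the other side, IPO4, which overlaps the end of REC8 in the annotation, was at 33.5 and 41.1 FPKM and TM9SF1 at 33.4 and 54.5 FPKM. CHMP4A and MDP1 were at 111 and 73.2, and at 40.1 and 33.5 FPKM.

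**Figure D4:**
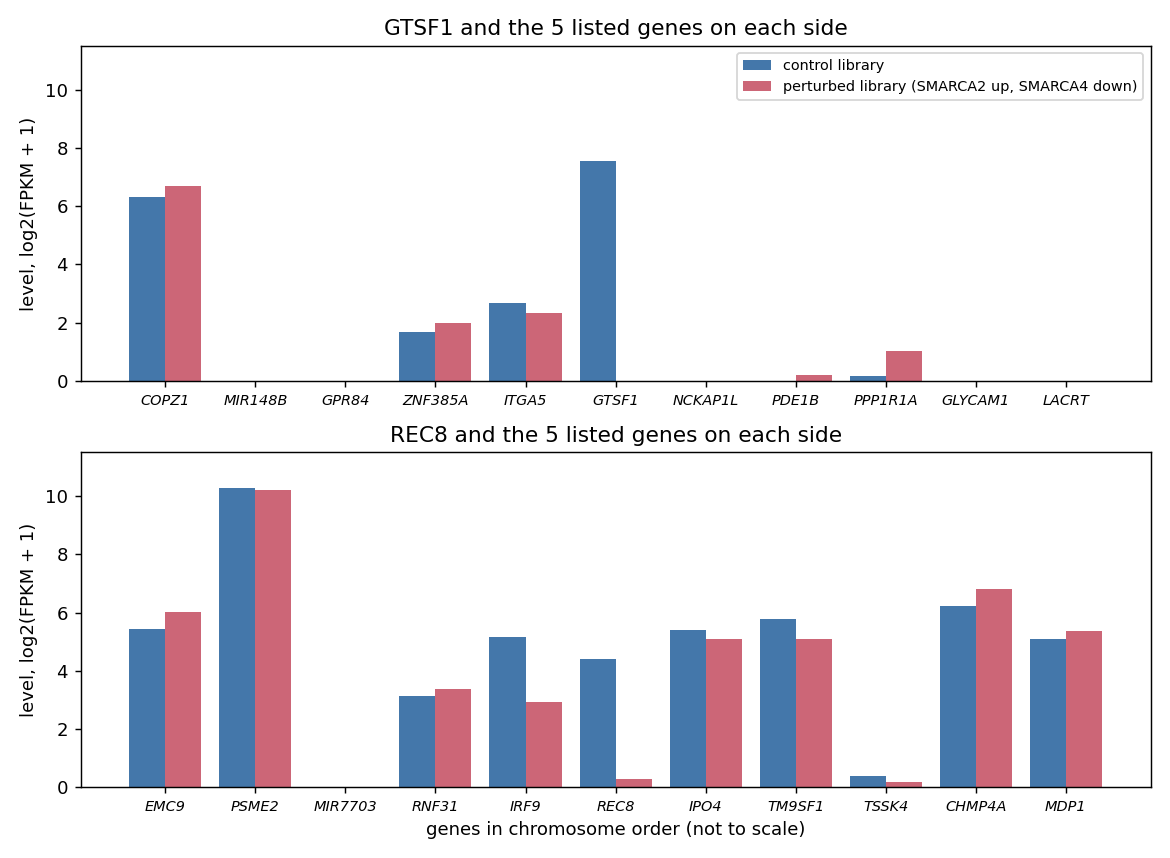
Level, as log2(FPKM + 1), of GTSF1 (top) and REC8 (bottom) and of the 5 listed genes on each side, in chromosome order and not to scale; blue bars are the control and red bars the perturbed library. GTSF1 is the one gene of its row past the rule of size, while IRF9 is past it beside REC8.

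Germ-cell markers were mostly at or near 0 in each library. Of 22 markers, 9 were above 0 in the control and 8 in the perturbed library, beside 15517 and 15925 of all 26255 genes. At 1 FPKM or more in a library were 6 markers, beside 11785 of all genes, and none of the 6 was called. With 15.5% of those 11785 genes called, none of 6 is too small a count to read. The summed level of the 22 markers was 45.2 FPKM in the control and 68.4 in the perturbed library. Most of the sum was SOX17, at 28.99 FPKM in the perturbed library and 17.0 in the control, and ZP3, at 25.2 and 14.8 FPKM; SOX17 is also expressed in ovarian cancer. DND1 was at 8.21 and 7.80 FPKM and GDF9 at 2.09 and 2.92. POU5F1 was at 2.03 and 0.778 FPKM and TFAP2C at 1.19 and 1.53. DAZL, NANOS2, DPPA3, PRM1 and PRM2 were among 12 markers listed at 0 in each library, as were 35.9% of all genes. DDX4 was also listed at 0. For the short transcripts of PRM1 and PRM2, a true count of 0 allows up to 1.51 and 0.706 FPKM in the perturbed library.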

How the data were processed

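Total RNA from 2 cultures of OVSAHO was sequenced, 1 library per group, from SMART-Seq HT cDNA and Nextera XT libraries per the labels' protocols. This chemistry does not mark strand. The authors deposited 1 FPKM value per gene symbol and library, per the file headers. Per the submitters' processing notes, the build was hg19 and the tools included Cuffdiff 2.2.1, TopHat2 2.1.1, SAMtools 0.1.18 and Bowtie2 2.2.8. Which annotation was used, how multiply mapping reads were handled and how libraries were scaled is not given in the sources used here.

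Groups were taken from the genotype labels. A gene was called when at 1 FPKM or more in a library and at a log2 ratio of at least 1 or at most -1, with a pseudocount of 1 FPKM, which understates changes of weak genes. Fold values use FPKM with no pseudocount. No p-value was computed, since each group has 1 library. Depth and a shortening of each transcript by 200 bases were chosen together so that the most values of single-transcript genes (497 in all) lay in a window 2% wide at 1 fragment; the estimate was tested on simulated data. Approximate fragments used the median-length GENCODE 29 transcript matched to RefSeq, of at least 300 bases. Intervals of 95% for folds and ratios are Clopper-Pearson on these fragments. PCR copies are not independent molecules, so intervals and limits cover counting error only. One result is not reported here.

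Promoters came from RefSeq on GRCh38.p14 and neighbours from RefSeq gene order. Named genes were the members, list genes past the rule (or the 2 most abundant), 5 neighbours on each side, and the 5 genes most like GTSF1 and REC8; other named genes were chosen after their values were seen. The members, lists and rules were chosen with earlier results of these data known. Python 3.11.15, pandas 2.3.3 and scipy 1.17.1 were used. Alternatives were pseudocounts, scalings, filters, other rules of size and, chosen after seeing the data, removal of trends on GC content, level and transcript length.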

Additional observations from a re-analysis of the deposited data

How the results depend on the processing

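No paired analysis was possible because each group has 1 library, and no replicate could be left out. Of the 3 members called lower, 2 were still called with a pseudocount of 5 FPKM or a 4-fold rule, and 1, TDRKH, with a filter of 1 FPKM in each library, which removes GTSF1 and REC8 by construction. For pseudocounts of 1, 0.1 and 5 FPKM, the log2 ratio of GTSF1 was -7.55, -10.86 and -5.26, and that of REC8 was -4.12, -5.98 and -2.27. The GTSF1 values are set by the pseudocount, since its perturbed value is listed at 0, and measure no size. With 1 FPKM added, the REC8 log2 ratio had a counting interval of -4.46 to -3.63, from Poisson limits in each library. The other scalings and the removal of trends on length, GC content and level left the REC8 log2 ratio inside that interval. With a 0.1 FPKM pseudocount, 2 neighbours, 2 other piRNA genes, 2 somatic relatives and 5 repressors were called, where 24.6% of all genes were. With 5 FPKM, 5.08% of all genes were called, and 0 other piRNA genes, 0 other meiosis genes and 0 repressors. With a 1.5-fold rule, 5 neighbours, 3 other piRNA genes, 6 other meiosis genes, 4 somatic relatives and 8 repressors were called. Of all genes, 40.4% were called under that rule. With a 4-fold rule, 1.32% of all genes were called, and 0 other piRNA genes, 0 other meiosis genes and 0 repressors. With filters of 5 FPKM in a library or 1 FPKM in each, 0 other meiosis genes and 0 repressors were called. Of all genes past these filters, 15.8% and 12.3% were. Scaling to a common sum, centring, the trimmed mean and the removal of trends each called 2 repressors in place of 1. In that order, these settings called 16.2%, 15.7%, 15.7% and 12.7% of all genes. Depth limits PIWIL2, SYCE3, DMC1 and the size of the REC8 fold.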
